A study of Mus musculus with 11 samples.

Results

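The genes described here encode the olfactory transduction cascade, the chain of proteins in the cilia of olfactory sensory neurons (OSNs) that turns odorant binding into an electrical signal. They were measured in whole main olfactory epithelium (MOE) of newborn mice with Affymetrix expression arrays, on which each gene is read by 1 or more probe sets. The 10 genes are Gnal, Gng13, Gnb1, Ric8b, Adcy3, Cnga2, Cnga4, Cngb1, Ano2 and Pde1c, and a probe set was assigned to one of them if the array annotation gave that gene symbol and no other. Of the 10 genes, 9 had such a probe set, out of 18194 genes with one on the whole array. No probe set named Ano2 alone, so its level is not analysed here. The 9 genes had 23 probe sets, and 22 of them passed the filter of a mean signal of at least 20 over the 11 arrays. The remaining one was a Gnb1 probe set (1425908_at), which read 1.1 to 19.3 in Bcl11b KO and 7.1 to 19.2 in wild type.

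The question asked of these genes was whether the steps of the cascade differed between Bcl11b KO and wild type MOE, and whether they differed by the same amount. Bcl11b is a zinc-finger transcription factor of the OSN lineage. The Bcl11b KO group comprised 6 preparations and the wild type group 5, each from one MOE at postnatal day 0 of mice labelled BALB/c, with 1 array each. KO replicates 3 and 6 were female and the other 4 KO and all 5 wild type preparations were male, so sex and genotype were partly tied. The knockout is a conventional one, not limited to OSNs, and the whole tissue holds supporting cells, basal cells, glia and blood besides neurons.

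In an OSN, an odorant receptor activates the olfactory G protein Golf, made of the alpha subunit Gnal with a beta subunit such as Gnb1 and the gamma subunit Gng13. Ric8b assists Golf alpha as a chaperone and exchange factor. Golf alpha activates adenylyl cyclase type III (Adcy3), and the cAMP it makes opens a cyclic nucleotide-gated (CNG) channel built of Cnga2, the subunit essential for its opening, with Cnga4 and Cngb1, which tune its response to cAMP and calcium and its place in the cilia. Calcium entering through the channel opens the chloride channel Ano2, which amplifies the current, and activates the phosphodiesterase Pde1c, which breaks cAMP down again. Gnb1 is used by G proteins in most cell types, whereas Golf alpha, Adcy3 and the Cnga2 channel are hallmarks of mature OSNs.

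The sequences around the transcription starts of the genes were searched for the core of the site of Ebf factors, which are regulators of OSN genes, as a feature that cascade genes could share. RefSeq promoters of mouse build GRCm38.p6, 250 bases before to 50 after a start, were found for 15 starts of the 9 genes other than Gnal. The core CCCNNGGG, which reads the same on both strands, lay in 5 of the 15, 1 start each of Gng13, Cnga2, Cnga4, Cngb1 and Ano2. It lay in 13.7% of the 32851 mouse promoters searched, which did not include every chromosome. The longer form TCCCNNGGGA, which contains the core, lay in 0 of the 15 and in 0.904% of the promoters searched. The homeodomain core TAATTA lay in 0 of the 15 and in 5.29% of the promoters searched. The promoters of Gng13 and of the 3 CNG channel subunits are shown, because they hold the core and comparisons within Golf and within the channel make up much of the results. Capitals mark CCCNNGGG. Counted from the transcription start, 2 overlapping copies begin at −95 and −94 in Gng13, and the copy begins at −66 in Cnga2, at −129 in Cngb1 and at 24, past the start, in Cnga4. A match describes the letters only.
Gng13 (chr17:25716922-25717221, plus strand): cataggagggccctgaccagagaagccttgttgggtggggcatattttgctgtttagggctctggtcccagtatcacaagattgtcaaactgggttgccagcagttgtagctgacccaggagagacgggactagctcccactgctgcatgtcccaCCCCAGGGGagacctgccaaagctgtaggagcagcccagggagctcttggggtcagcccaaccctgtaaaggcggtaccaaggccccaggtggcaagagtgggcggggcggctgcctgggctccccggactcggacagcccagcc
Cnga2 (chrX:71991599-71991898, plus strand): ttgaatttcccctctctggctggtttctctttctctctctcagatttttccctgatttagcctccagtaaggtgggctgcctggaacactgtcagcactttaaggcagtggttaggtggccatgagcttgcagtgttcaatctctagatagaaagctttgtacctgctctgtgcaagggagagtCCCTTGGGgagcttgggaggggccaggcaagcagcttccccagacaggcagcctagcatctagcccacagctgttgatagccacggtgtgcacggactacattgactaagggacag
Cnga4 (chr7:105404318-105404617, plus strand): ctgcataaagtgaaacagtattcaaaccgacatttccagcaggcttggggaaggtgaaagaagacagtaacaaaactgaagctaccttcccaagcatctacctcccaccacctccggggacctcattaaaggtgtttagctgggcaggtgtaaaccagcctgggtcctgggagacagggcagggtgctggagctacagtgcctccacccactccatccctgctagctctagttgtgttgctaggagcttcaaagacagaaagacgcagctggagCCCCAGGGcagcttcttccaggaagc
Cngb1 (chr8:95306536-95306835, minus strand): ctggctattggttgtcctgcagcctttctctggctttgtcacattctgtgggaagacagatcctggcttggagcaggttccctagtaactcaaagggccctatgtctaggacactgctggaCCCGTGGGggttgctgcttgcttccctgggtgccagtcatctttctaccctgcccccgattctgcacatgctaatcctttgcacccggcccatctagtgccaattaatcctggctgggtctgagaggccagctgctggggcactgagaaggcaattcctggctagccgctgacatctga

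The deletion and the tissue were checked first. Bcl11b averaged 893 ± 242 in KO and 3257 ± 529 in wild type at its brightest probe set (mean signal ± SD, n = 6 KO and 5 wild type here and below), a log2 change of −1.88 (adjusted p = 1.2e-05), and its 4 probe sets were all lower with no overlap of the groups. Here and below a log2 change is KO minus wild type of log2(signal + 16), fitted in limma over 33662 probe sets with Benjamini-Hochberg adjustment. Markers of mature OSNs were well above the low end of the arrays in both groups, with a summed signal of 3302 to 5238 in KO and 6924.2 to 9366.4 in wild type over 5 genes. The mean log2 signal of these 5 genes (Omp, Stoml3, Umodl1, Slc17a6 and Ncam2) was lower by 0.79 in KO, and 3 of them (Stoml3, Umodl1 and Ncam2) passed the test. Omp and Slc17a6 did not (−0.57 and −0.041 at their brightest probe sets, adjusted p = 0.309 and 0.99). Over 6 immature OSN markers the mean difference was −0.049 on the log2 scale, with 0 called. It was −0.15 over 4 genes of sustentacular (supporting) cells and 0.010 over 3 of horizontal basal cells. Over 3 genes of respiratory ciliated cells it was 0.12, and over 2 of ensheathing glia 0.29. In each of these lists 0 were called. Over 3 genes of vomeronasal neurons the mean was lower by 0.40 in KO, with summed signals of 809 to 1369.1 in KO and 972.3 to 1416.7 in wild type. That mean rests on 1 dim receptor, Vmn1r171, which fell (9.95 ± 5.73 in KO and 43.4 ± 10.1 in wild type, change −1.21, adjusted p = 0.0159). Trpc2 and Gnao1 changed little at their brightest probe sets (−0.048 and 0.054, adjusted p = 0.992 and 0.99). Of the 2 precursor markers measured, Neurog1 and Neurod1, both rose, with a mean of 0.79 and summed signals of 2498.3 to 4213 in KO against 1691.4 to 2008.8 in wild type. Of 3 tested erythroid genes, Hbb-y and Hbb-bh1 rose and Alas2 was not called (0.17, adjusted p = 0.943). The 3 summed to 1122.5 to 1560.8 in KO and 724.5 to 1085.2 in wild type. Hba-x was also listed but lay under the signal filter, with means of 8.42 in KO and 15.1 in wild type. In bulk tissue, fewer mature OSNs and less RNA of a gene per OSN cannot be told apart, and the part of these marker differences in the changes below was not tested.

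Poly-A RNA spiked in before labelling split the arrays into 2 sets, which the labels do not name. KO replicates 4, 5 and 6 and wild type replicates 1 and 2 had the higher level, and KO replicates 1, 2 and 3 and wild type replicates 3, 4 and 5 the lower. Both sets hold both groups, and changes within each are given below where a result touches them. The ratio of 3′ to 5′ GAPDH signal, a sign of RNA integrity, was highest on KO replicates 3 (2.70) and 2 (2.42), against 1.82 to 2.12 on the other KO arrays and 1.88 to 2.27 on wild type arrays.

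Across the cascade, Golf alpha, its gamma subunit and the channel subunit Cnga4 each had 1 probe set called lower in Bcl11b KO MOE. No probe set of Gnb1, Ric8b, Adcy3, Cnga2, Cngb1 or Pde1c passed the test. That alone does not set these genes apart from the called ones, and unequal changes were tested in pairs, as given below. Of the 22 tested probe sets, 19 had a negative change and 3 a positive one, with a median of −0.28 on the log2 scale, beside a median of 0.047 over all tested probe sets, of which 39.6% were negative. Of the 22, 3 were called lower (13.6%, 1 each of Gnal, Gng13 and Cnga4), beside 0.211% of all tested probe sets. None was called higher, beside 0.244% of all tested probe sets. At an unadjusted p under 0.05, 7 of the 22 were lower and 0 higher, beside 2.45% and 4.47% of all tested probe sets. Every KO array lay below every wild type array at 5 of the 22 probe sets, beside 0.573% of all. These were the 3 called ones, Cnga2 and 1 of the 2 probe sets of Ric8b. Taking the brightest probe set of each gene, 9 of 9 genes had a negative change, with a median of −0.37 and a range of −1.04 (Cnga4) to −0.12 (Gnb1).

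**Figure D1:**
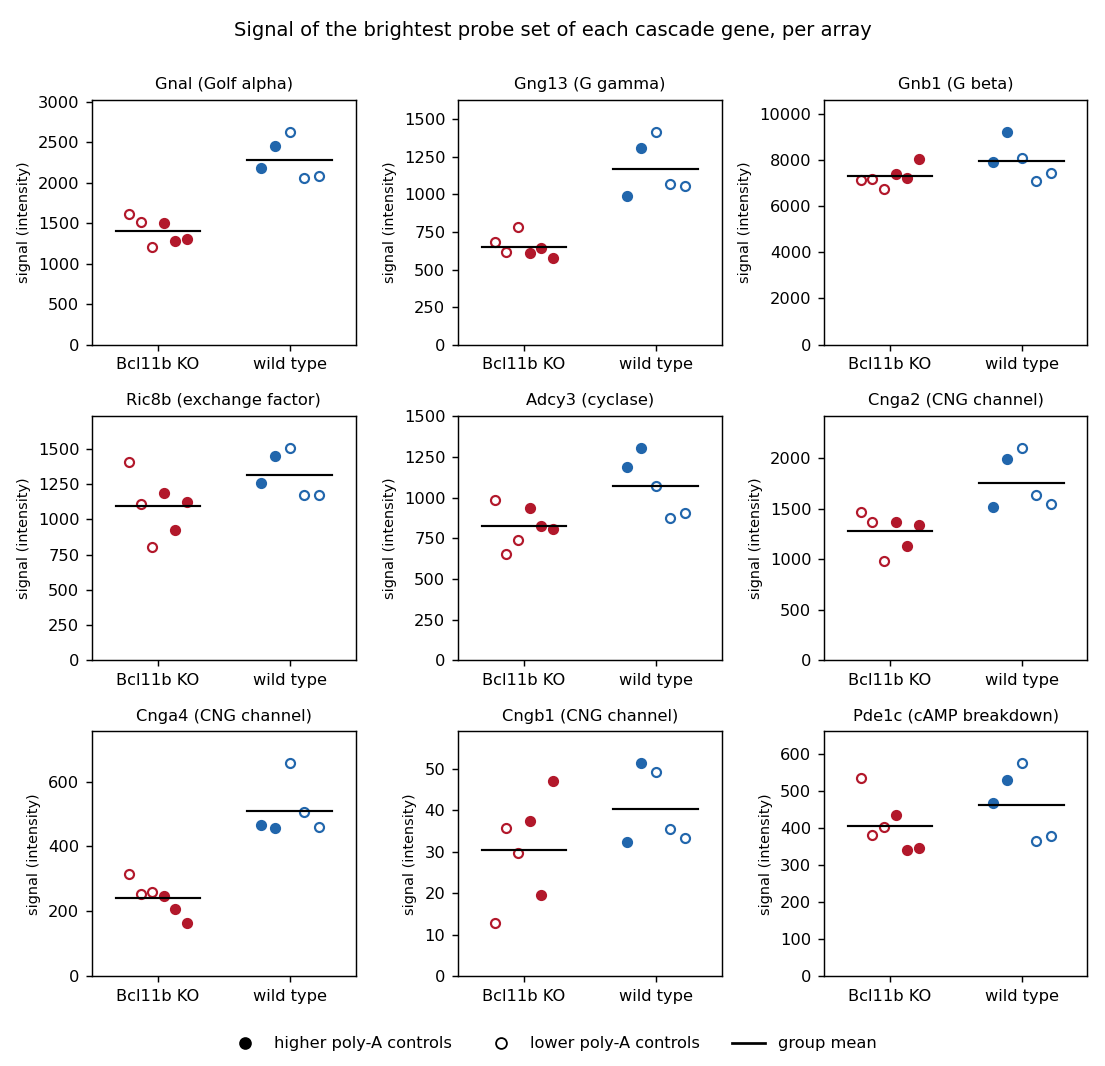
Signal of the brightest probe set of each of the 9 cascade genes on each array, with Bcl11b KO (red) at the left and wild type (blue) at the right of each panel. Filled points are arrays with higher and open points arrays with lower poly-A spike controls, and black lines are group means. The groups do not overlap for Gnal, Gng13, Cnga2 and Cnga4, and they overlap for the other 5.

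Golf alpha was among the 3 genes with a probe set called lower. At its brightest probe set (1439957_at) Gnal read 1618.3, 1509.7, 1204.5, 1497.6, 1286.9 and 1307.8 on KO arrays 1 to 6, against 2178.5, 2451.5, 2632.0, 2063.9 and 2079.2 on wild type arrays 1 to 5. The highest KO array was below the lowest wild type array. The means were 1404 ± 160 in KO and 2281 ± 250 in wild type, a log2 change of −0.69 (SE 0.11, 95% interval −0.93 to −0.46, adjusted p = 0.00545). The change was −0.76 within the arrays of higher and −0.64 within those of lower poly-A controls.

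The other probe sets of Gnal were less clear. The second (1442021_at) read 258.1, 237.6, 280.3, 741.8, 571.4 and 640.7 in KO, against 968.2, 1278.2, 578.6, 313.9 and 389.6 in wild type. Both groups fell into a brighter and a dimmer set, and these followed the poly-A controls, with KO 4, 5 and 6 and wild type 1 and 2 bright. The groups overlapped over all 11 arrays, and the change was −0.57 (SE 0.35, adjusted p = 0.883). Within the arrays of higher poly-A controls the change was −0.77 and within those of lower ones −0.65, with no overlap of KO and wild type inside either set. With the poly-A set as a covariate the probe set was called (−0.70, adjusted p = 0.0456). In that setting 107 of all tested probe sets were called lower, against 71 without the covariate. The third (1446359_at) was dim, with 20.3 to 40.9 in KO and 19.5 to 43.7 in wild type, and its change of −0.18 was not called (adjusted p = 0.97). With the mean of the 3 probe sets in place of the brightest, Gnal was not called (−0.48, adjusted p = 0.502).

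**Figure D2:**
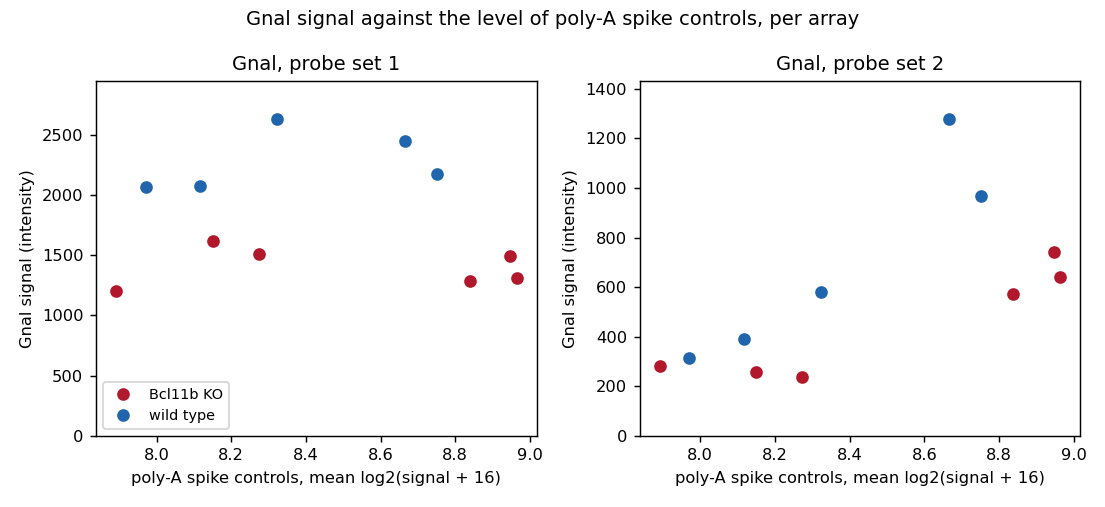
Gnal signal (vertical axes) at its brightest (left) and second probe set (right) against the mean log2 level of the poly-A spike controls (horizontal axes), with 1 point per array, KO in red and wild type in blue. At the second probe set the arrays with higher poly-A controls read 571.4 to 741.8 in KO and 968.2 to 1278.2 in wild type, and the others 237.6 to 280.3 in KO and 313.9 to 578.6 in wild type.

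The gamma subunit fell with it. Gng13 (1419414_at) read 685.4, 616.6, 785.5, 608.4, 644.0 and 578.6 in KO, against 986.5, 1307.5, 1418.0, 1070.5 and 1056.3 in wild type. No KO array reached the lowest wild type array. The means were 653 ± 74.2 in KO and 1168 ± 185 in wild type, a change of −0.82 (SE 0.13, 95% interval −1.09 to −0.54, adjusted p = 0.00512), with −0.88 and −0.74 within the arrays of higher and lower poly-A controls. The KO array that held the most Gng13 signal, KO 3, held the least Gnal signal. A second probe set (1447282_at) was near the low end of the arrays, with 18.7 to 47.8 in KO and 15.8 to 61.0 in wild type, and was not called (−0.24, adjusted p = 0.967). The mean of both probe sets gave −0.53, which did not pass either (adjusted p = 0.296).

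Gnb1, the beta subunit shared with other G proteins, had the highest signal and the smallest change among the brightest probe sets of the 9 genes. Its brightest probe set (1454696_at) read 7146.8, 7171.1, 6737.8, 7392.7, 7233.4 and 8029.7 in KO, against 7887.6, 9221.2, 8084.5, 7080.1 and 7438.8 in wild type. The groups overlapped, and the means were 7285 ± 424 in KO and 7942 ± 815 in wild type. The change of −0.12 (SE 0.079, adjusted p = 0.902) had a 95% interval of −0.29 to 0.046, which does not reach the change of Gnal or Gng13. The second probe set (1417432_a_at) gave 1142 ± 169 in KO and 1161 ± 140 in wild type, a change of −0.029 (SE 0.13, adjusted p = 0.993).

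Neither of the 2 probe sets of Ric8b passed the test. The brighter (1435096_at) read 1407.9, 1112.7, 802.6, 1190.6, 926.8 and 1124.0 in KO, against 1256.1, 1448.7, 1510.1, 1172.3 and 1174.2 in wild type. Here KO 1 lay above 3 wild type arrays and KO 4 above 2, and the change was −0.27 (SE 0.14, 95% interval −0.57 to 0.027, adjusted p = 0.794). The dimmer (1439724_at) read 254.9, 302.3, 159.6, 242.0, 251.5 and 197.5 in KO, against 351.6, 384.3, 402.3, 382.9 and 358.8 in wild type. There the groups did not overlap, and the means were 235 ± 49.7 in KO and 376 ± 20.6 in wild type. The change of −0.67 (SE 0.16, 95% interval −1.0 to −0.34) missed the threshold (adjusted p = 0.0815), and without KO 2 it passed (−0.74, adjusted p = 0.0376).

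Adcy3, the cyclase that Golf alpha activates, was lower on average but overlapped between the groups. Its brightest probe set (1421960_at) read 989.6, 656.3, 738.9, 935.9, 824.7 and 805.6 in KO, against 1187.3, 1309.3, 1075.6, 877.1 and 904.2 in wild type. KO 1 and KO 4 lay above the 2 lowest wild type arrays. The means were 825 ± 123 in KO and 1071 ± 184 in wild type, and the change was −0.37 (SE 0.14, 95% interval −0.67 to −0.065, adjusted p = 0.544). Scaled to spiked hybridization controls it was −0.57 and passed (adjusted p = 0.0458). The 3 other probe sets had changes of −0.13, −0.59 and −0.32, none of them called. The one at −0.59 (1421959_s_at, SE 0.19, adjusted p = 0.317) averaged 119 ± 36.3 in KO and 182 ± 17.1 in wild type, and a single KO array, KO 1 at 180.3, lay within the wild type range of 161.7 to 198.5.

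**Figure D3:**
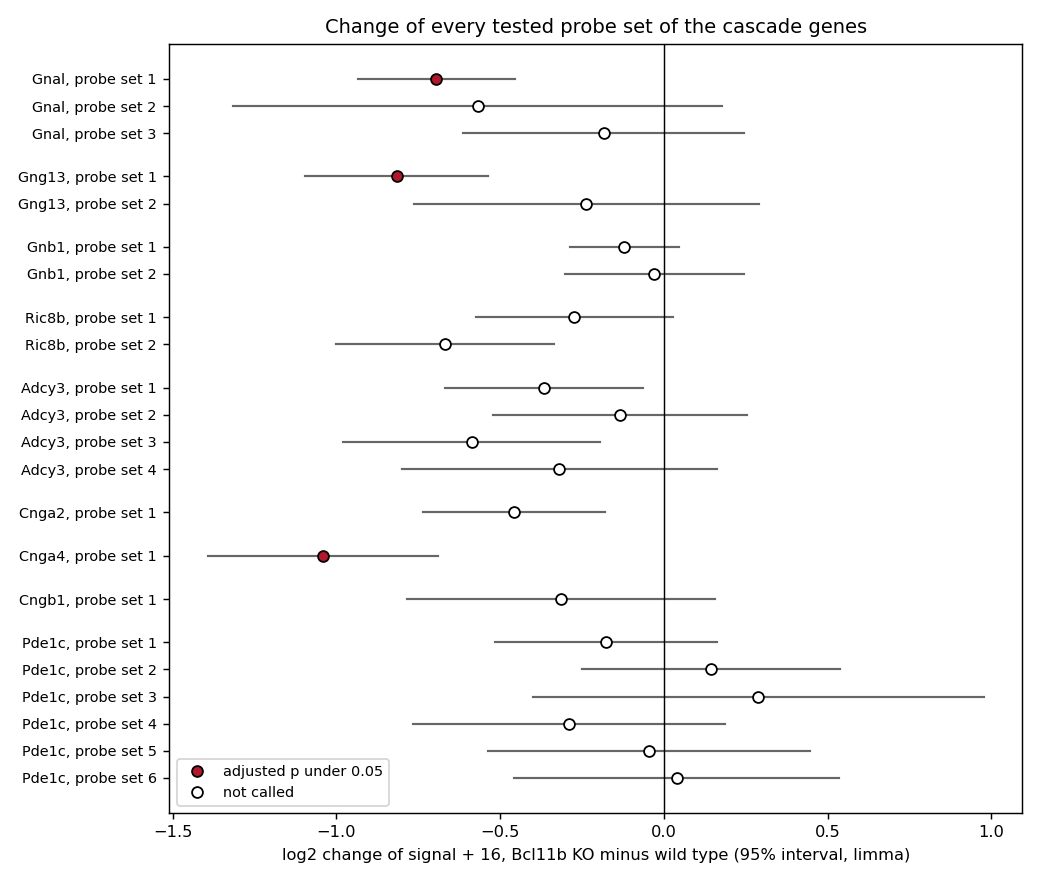
Log2 change, KO minus wild type, of each of the 22 tested probe sets of the cascade genes (horizontal axis), numbered within a gene by falling mean signal. Bars are 95% intervals from limma, and filled points passed an adjusted p of 0.05. The 3 filled points are the brightest probe sets of Gnal and Gng13 and the one probe set of Cnga4.

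In the CNG channel the modulatory subunit Cnga4 had the largest change among the 22 tested probe sets. Its one probe set (1445339_at) read 314.6, 253.7, 260.9, 248.2, 205.9 and 164.2 in KO, against 467.3, 456.8, 656.3, 504.8 and 458.8 in wild type. The highest KO array was well below the lowest wild type array. The means were 241 ± 51.3 in KO and 509 ± 84.7 in wild type, a change of −1.04 (SE 0.17, 95% interval −1.39 to −0.69, adjusted p = 0.00468), with −1.12 and −0.92 within the arrays of higher and lower poly-A controls.

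Cnga2, the principal subunit, read 1465.7, 1368.6, 982.9, 1365.8, 1133.1 and 1339.5 in KO, against 1514.1, 1990.5, 2106.2, 1636.2 and 1547.5 in wild type at its one probe set (1422181_at). The groups did not overlap, although KO 1 and wild type 1 were close to each other. The means were 1276 ± 181 in KO and 1759 ± 271 in wild type, and the change of −0.46 (SE 0.13, 95% interval −0.74 to −0.18) did not pass the test (adjusted p = 0.22). It passed after quantile normalization (−0.52, adjusted p = 0.0208) and after scaling to spiked hybridization controls (−0.66, adjusted p = 0.016). Cnga2 is X-linked, and the female KO arrays 3 and 6 read 982.9 and 1339.5. Cngb1, the third subunit, was dim at its one probe set (1451549_at), with 12.8, 35.7, 29.8, 37.3, 19.5 and 47.0 in KO against 32.4, 51.3, 49.3, 35.5 and 33.2 in wild type. These levels lay below the median signal of every array, which was 62 to 86.5 in KO and 56.6 to 85.7 in wild type, and the change of −0.31 (SE 0.22, adjusted p = 0.918) had a 95% interval of −0.78 to 0.15.

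Pde1c, the calcium-dependent phosphodiesterase of the cilia, had 6 tested probe sets, of which 3 had negative and 3 positive changes, none called. The brightest (1436251_at) read 536.6, 383.0, 402.6, 434.8, 339.8 and 346.2 in KO, against 467.0, 530.5, 575.3, 366.2 and 379.9 in wild type. The groups overlapped over most of their range, with a change of −0.18 (SE 0.16, 95% interval −0.51 to 0.16, adjusted p = 0.958). That change was −0.41 within the arrays of higher and 0.015 within those of lower poly-A controls. The next (1440374_at) averaged 339 ± 74.8 in KO and 304 ± 61.8 in wild type, a change of 0.14 (adjusted p = 0.975). The third (1444386_at) read 63.8 to 233.5 in KO and 35.5 to 178.9 in wild type, with KO 4 and wild type 2, both of higher poly-A controls, at the top of their groups. The 3 others were dim, with means of 23.9 to 25.3 in KO and 22.9 to 32.5 in wild type.

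Whether 2 steps changed by unequal amounts was tested within arrays, where a scale factor common to an array cancels apart from the pseudocount. For 7 pairs of genes, each by its brightest probe set, the difference of 2 log2 signals was taken on every array and compared between KO and wild type. The test was a two-sided exact permutation one, over the 462 possible divisions of the arrays, and its p cannot be under 0.00216. P-values were adjusted over the 7 pairs. A positive value means that the change of the first gene was less negative than that of the second. The test sets a difference against the spread between arrays and does not cover unequal responses of probe sets. Changes at probe sets of the same gene were −0.27 and −0.67 for Ric8b, −0.59 to −0.13 for Adcy3, and −0.12 and −0.029 for Gnb1.

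The change of Gnb1 was smaller than that of Gnal at their brightest probe sets. The difference was 0.57 (SE 0.092, 95% interval 0.37 to 0.78, exact p = 0.00216, adjusted p = 0.0152), and Gnb1 minus Gnal was 2.13 to 2.60 in KO and 1.61 to 1.90 in wild type, with no overlap. The beta subunit of other cells counts in the Gnb1 signal, and its part was not tested. With the mean of all tested probe sets of each gene the difference was 0.41 and did not pass (adjusted p = 0.0606). Gng13 minus Gnal gave a difference of −0.12 (SE 0.12, 95% interval −0.40 to 0.16, exact p = 0.348, adjusted p = 0.407). Without KO 3 it was −0.22 and passed (adjusted p = 0.0278), and in males only it was −0.22 (adjusted p = 0.0694).

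The change of Ric8b was also smaller than that of Gnal at their brightest probe sets. The difference was 0.42 (SE 0.068, 95% interval 0.27 to 0.58, exact p = 0.00433, adjusted p = 0.0152), with Ric8b minus Gnal at −0.58 to −0.20 in KO and −0.82 to −0.75 in wild type. This rests on the probe sets used: with the mean of every tested probe set of each gene it was 0.012 (exact p = 0.965). Adcy3 minus Gnal gave 0.33 (SE 0.12, 95% interval 0.053 to 0.60, exact p = 0.0411), which did not pass after adjustment (adjusted p = 0.072). On 5 of 6 KO arrays it lay above every wild type array, and KO 2 at −1.18 lay inside the wild type range of −1.28 to −0.87. Without KO 2 the difference was 0.41 (adjusted p = 0.0185), and with the mean of all tested probe sets of each gene it was 0.13 (adjusted p = 0.663).

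Within the channel, the signal of Cnga4 changed more than that of Cnga2, each at its 1 probe set. With 1 probe set each, unequal changes of the transcripts and unequal responses of the probe sets cannot be told apart. The difference was −0.58 (SE 0.17, 95% interval −0.97 to −0.19, exact p = 0.00866, adjusted p = 0.0202), and −0.68 and −0.44 within the arrays of higher and lower poly-A controls. Cnga4 minus Cnga2 was −2.91 to −1.85 in KO and −2.09 to −1.66 in wild type. Leaving out wild type 1, 3, 4 or 5 in turn moved its adjusted p to 0.05, 0.0556, 0.0556 and 0.0556, at differences of −0.56, −0.56, −0.56 and −0.57. Cngb1 minus Cnga2 gave 0.14 (SE 0.21, 95% interval −0.34 to 0.62, exact p = 0.53), and Pde1c minus Adcy3 gave 0.19 (SE 0.11, 95% interval −0.068 to 0.45, exact p = 0.115, adjusted p = 0.161). The value for Pde1c minus Adcy3 passed with the mean of all tested probe sets of each gene (0.34, adjusted p = 0.0303). It also passed with arrays permuted only within the poly-A sets (0.21, adjusted p = 0.021).

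**Figure D4:**
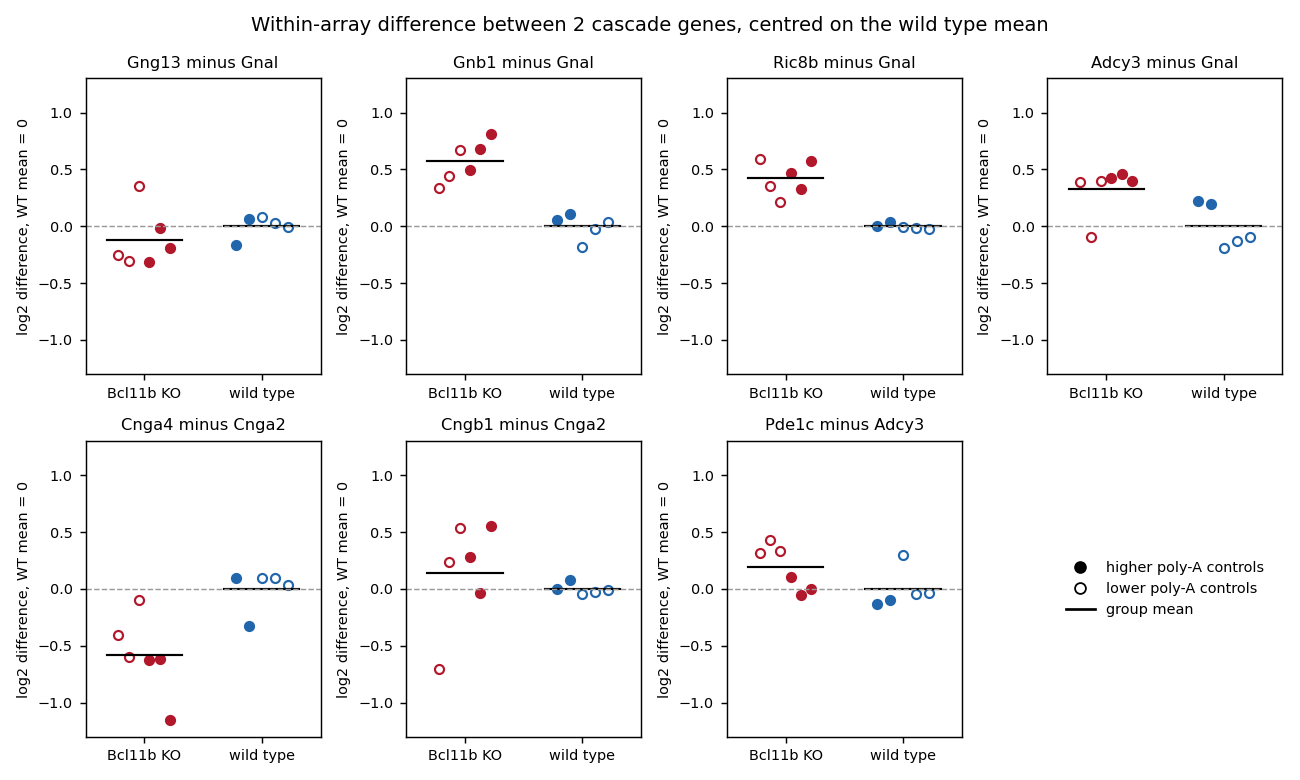
Within-array difference of 2 log2 signals (vertical axes) for the 7 pairs of cascade genes, shifted so that the wild type mean is 0, with KO (red) left of wild type (blue), filled points for arrays of higher and open points for arrays of lower poly-A controls, and black lines for group means. For Gnb1 minus Gnal and Ric8b minus Gnal the KO arrays lie above every wild type array, with mean differences of 0.57 and 0.42.

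Some arrays were high or low in several cascade genes at once. Of the 9 brightest probe sets, KO 1 held the highest KO value in 6 and KO 3 the lowest in 4. Among the wild type arrays, wild type 3 was highest in 6 and wild type 4 lowest in 5. Averaged over the 9 genes, the KO arrays deviated from their group mean by −0.14 to 0.14 and the wild type arrays by −0.16 to 0.22 on the log2 scale.

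Other proteins that work with the cascade were read from a list of 17 partners in receptor transport, signal termination, ion handling and modulation, of which 11 had a tested probe set. Stoml3 was called lower, at 2 of the 24 tested probe sets of these genes, and none was called higher. Of all tested probe sets, 0.211% were called lower and 0.244% higher. The median change at the brightest probe sets was −0.035, with 6 negative and 5 positive. Over all tested probe sets the median was 0.047, and 39.6% were negative. Stoml3, a stomatin-family membrane protein of OSN cilia that also serves here as a mature OSN marker, averaged 2048 ± 550 in KO and 4673 ± 808 in wild type (change −1.21, SE 0.16, adjusted p = 0.000794). Its second probe set gave 1336 ± 221 in KO and 2810 ± 420 in wild type (−1.07, adjusted p = 0.000435), and the groups did not overlap at either. Reep1, of a family that helps receptors reach the membrane, averaged 1766 ± 282 in KO and 1265 ± 98.5 in wild type, a change of 0.46 that did not pass (adjusted p = 0.156). It passed without KO 2 and KO 3, the arrays of highest GAPDH ratio (adjusted p = 0.0198). In that setting 204 of all tested probe sets were called higher, against 82 with every array. Omp, the olfactory marker protein, which buffers cAMP in OSNs, averaged 393 ± 79.3 in KO and 586 ± 114 in wild type, and its changes of −0.57 and −0.67 at 2 probe sets did not pass (adjusted p = 0.309 and 0.183).

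Paralogues of the cascade genes, the forms that OSNs do not mainly use for odorant signalling, were listed to the number of 38, and 31 had a tested probe set. Of these 31 genes, none was called in either direction in limma. With calls as rare on the whole array as given above, no call among 53 probe sets is close to the background. At an unadjusted p under 0.05, 1 of the 53 was lower and 7 were higher, beside 2.45% and 4.47% of all tested probe sets. The median change of the brightest probe sets was 0.086, with 10 negative and 21 positive. Over all tested probe sets the median was 0.047, and 39.6% were negative. Adcy1, a calcium-stimulated cyclase of neurons, averaged 348 ± 81.6 in KO and 194 ± 39.2 in wild type, a change of 0.78 (SE 0.19, adjusted p = 0.1). Without KO 2 and KO 3 it passed at both tested probe sets (adjusted p = 0.0118 and 0.0282). So did Gnb2, another G beta subunit, named here after its values were seen (0.41 over all arrays, adjusted p = 0.192; 0.0427 without KO 2 and KO 3 and 0.0422 with the poly-A set as a covariate). Without these 2 arrays the median change over all tested probe sets was 0.13. Of all tested probe sets, 204 were then called higher and 80 lower, against 82 and 71 with every array. With the poly-A set as a covariate 119 were called higher and 107 lower. Ric8a, which serves other G alpha subunits, had its smallest p at a dim probe set (1438950_x_at) that averaged 117 ± 19.6 in KO and 70.3 ± 13.7 in wild type (0.62, adjusted p = 0.148), while its brightest averaged 2566 ± 397 in KO and 2511 ± 281 in wild type (0.023, adjusted p = 0.995).

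**Figure D5:**
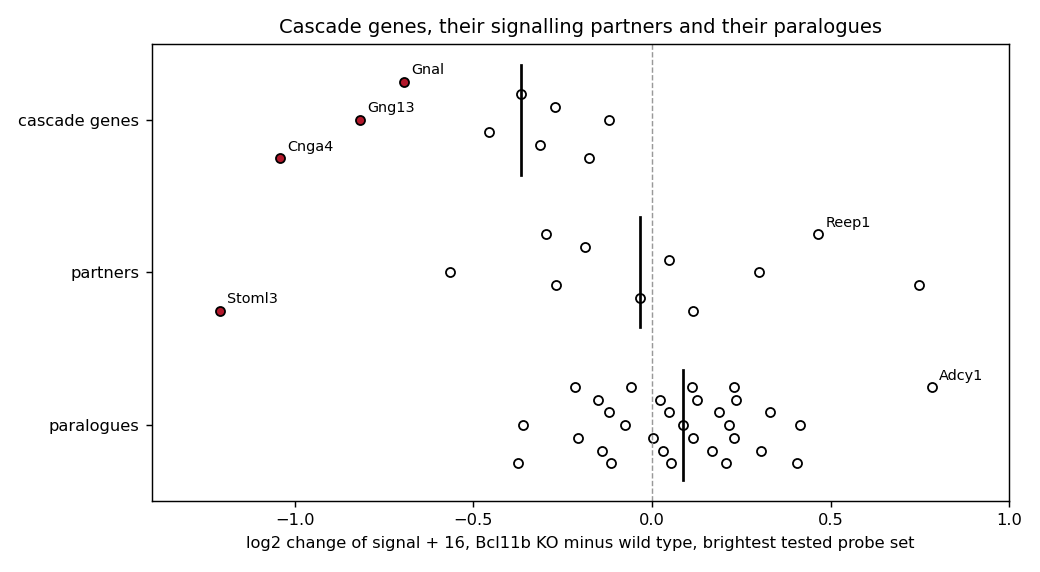
Log2 change, KO minus wild type, of the brightest tested probe set (horizontal axis) of 9 cascade genes, 11 partners and 31 paralogues, with 1 point per gene, spread vertically for legibility. Filled points passed an adjusted p of 0.05, and black lines are the medians, at −0.37, −0.035 and 0.086.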

How the data were processed

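RNA from 6 Bcl11b KO and 5 wild type MOE preparations was hybridized to 1 array each. Per the study's methods, nanogram amounts of total RNA went through 2 rounds of amplification, and GCOS was used by the authors to scale arrays linearly to GAPDH (version not given in the sources used here). What was deposited are linear-scale intensities, 1 per probe set and array, and the GAPDH signal used for scaling is 10000 on every array, so a change of GAPDH would move every other value. The file holds 45101 probe sets, 64 of them controls; 34958 have 1 gene symbol.

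Signals were taken as log2(signal + 16), which understates changes of dim probe sets. Control probe sets and those with a mean signal under 20 were left out. The comparison, KO minus wild type, was fitted with lmFit and trended eBayes of limma 3.58.1 in R 4.3.3 without covariates, over 33662 probe sets, with Benjamini-Hochberg adjustment and a threshold of 0.05. The fit was tested on simulated data. A gene is represented by its brightest tested probe set unless stated. In limma a p-value sets the difference of the groups against the spread between preparations, moderated over probe sets. Pair p-values come from permutations or sign flips. Where the poly-A sets enter a pair test, arrays were permuted within each set, and the value is the mean of the within-set differences. The number of arrays limits the precision.

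Members, gene lists, pairs and alternatives were chosen with earlier results of these data known. The text names the 10 cascade genes, partners and paralogues past the threshold, the 2 of smallest p in each list, and markers. Genes outside this rule were chosen after their values were seen. Alternatives were array median, quantile and spiked-control scaling, pseudocounts of 1 and 64, no filter or a minimum of 100, eBayes without trend, array weights, males only, sex or poly-A set as a covariate, each poly-A set alone, leaving out arrays, averaging the probe sets of each gene, and a block for replicate number. The poly-A sets were inferred from the spike controls. Promoters came from RefSeq (GRCm38.p6); that of Gnal is not reported here.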

Additional observations from a re-analysis of the deposited data

Results flagged for a closer look

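In 58 groups, each a probe set or pair difference in KO or in wild type, the array at one end was compared with the others by its gap to the nearest one as a share of the range. The gap was past the 95% limit in 7. Chance gives about 1 group in 20. For Cnga4, wild type 3 stood above the other wild type arrays at 656.3, and without it the change was still called. Among dim probe sets, wild type 4 stood low at 19.5 for the third Gnal probe set and KO 5 low at 11.4 for the fifth of Pde1c. At the second probe set of Pde1c, wild type 4 stood low at 197.4. Among the pair differences, KO 2 stood low at −1.18 for Adcy3 minus Gnal, wild type 2 low at −2.09 for Cnga4 minus Cnga2, and wild type 3 high at −0.88 for Pde1c minus Adcy3. None of the 22 tested probe sets of the cascade genes had a KO change that differed between the poly-A sets in an interaction test in limma (adjusted p = 1 for each, smallest unadjusted p = 0.0642).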

How the results depend on the processing

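The calls of Gnal, Gng13 and Cnga4 held when each of the 11 arrays was left out in turn, with 3 to 4 probe sets and 3 to 4 genes called lower, and 0 were called higher in any setting. In males only the changes of these 3 genes were −0.62, −0.84 and −0.95 (adjusted p = 0.0185, 0.00706 and 0.0145 in limma). With sex as a covariate their adjusted p-values in limma were 0.029, 0.0151 and 0.0272. Quantile normalization called 5 probe sets of 5 genes, adding Cnga2 (adjusted p = 0.0208) and Ric8b (0.024), and spiked-control scaling 7 of 6 genes, adding 2 probe sets of Adcy3. Spiked-control scaling put the median of all tested probe sets at −0.13, against 0.047 with the deposited scaling, and called 289 of them lower and 59 higher, against 71 and 82. Quantile normalization called 173 lower and 120 higher, array weights 120 and 225, and leaving out KO 2 and KO 3 80 lower and 204 higher. The poly-A set as a covariate called 107 lower and 119 higher, and 4 cascade probe sets lower. With the replicate number as a block 0 probe sets and 0 genes were called (Gnal adjusted p = 0.0952, Gng13 0.0672, Cnga4 0.0507), as within either poly-A set alone, where 0 and 0 were called on 5 or 6 arrays. Same-numbered samples did not deviate together (correlations −0.28 to 0.0085). For numbers 1, 2, 4 and 5, however, the KO and the wild type sample lay in opposite poly-A sets. The correlations therefore cannot tell whether the numbers mark pairs. With the mean of all its probe sets neither Gnal (−0.48, adjusted p = 0.502) nor Gng13 (−0.53, adjusted p = 0.296) was called. The cause of these changes was not tested.

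In the replicate block, where sign flips over 5 pairs cannot give a p under 0.0625, Gnb1 minus Gnal was 0.53, Ric8b minus Gnal 0.39 and Cnga4 minus Cnga2 −0.47. With the mean of all probe sets Gnb1 minus Gnal was 0.41 (adjusted p = 0.0606), Ric8b minus Gnal 0.012 (0.965), Adcy3 minus Gnal 0.13 (0.663) and Pde1c minus Adcy3 0.34 (0.0303). With arrays permuted within the poly-A sets Adcy3 minus Gnal was 0.29 (0.00875) and Pde1c minus Adcy3 0.21 (0.021). Adcy3 minus Gnal also passed with quantile normalization (0.34, adjusted p = 0.0341) and without KO 2 and KO 3 (0.42, 0.0417). Cngb1 minus Cnga2 changed sign with a pseudocount of 1 (−0.024) and in males only (−0.056), and the change of Pde1c did so within the lower poly-A set (0.015). Leaving out arrays in turn gave −0.22 to −0.083 for Gng13 minus Gnal (past the threshold without KO 3), 0.53 to 0.62 for Gnb1 minus Gnal, 0.39 to 0.46 for Ric8b minus Gnal, 0.28 to 0.41 for Adcy3 minus Gnal, −0.68 to −0.47 for Cnga4 minus Cnga2, 0.062 to 0.31 for Cngb1 minus Cnga2 and 0.14 to 0.26 for Pde1c minus Adcy3. Ano2 minus Cnga2 was not run, since no probe set names Ano2 alone. Cngb1 lies under a minimum signal of 100 and has no value there. Pair differences were not tested under eBayes without trend, array weights or a sex covariate.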

Other observations

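The genes next to Cnga4 in the RefSeq gene order of build GRCm38.p6 were read because Cnga4 had the largest change among the cascade probe sets; they were chosen after their values were seen. Cckbr, the cholecystokinin B receptor, lies next to Cnga4 and has 2 probe sets, of which only the brighter is given. That probe set averaged 157 ± 18.0 in KO and 88.4 ± 16.8 in wild type (SD, n = 6 and 5), which is 0.73 on the log2 scale (SE 0.15, adjusted p = 0.0417 in limma). Cavin3, Smpd1 and Apbb1 follow Cckbr, with changes of 0.15, 0.15 and −0.082 at their brightest probe sets, none called. On the other side Fam160a2 gave 0.0083 at its brightest probe set (adjusted p = 0.998). Beyond it lies a run of odorant receptor genes, of which Olfr690 had a probe set naming it alone and averaged 58.6 ± 21.6 in KO and 27.7 ± 7.12 in wild type (0.74, adjusted p = 0.22).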
